A study of Mus musculus with 15 samples.

Results

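The genes described here encode cyclic nucleotide phosphodiesterases, the enzymes that hydrolyse the second messengers cAMP and cGMP. Members were the listed genes Pde3a, Pde4a, Pde4b, Pde4d, Pde5a, Pde6d, Pde7a, Pde8a, Pde8b and Pde10a whose symbol stands in the deposited table of expressed probes. Of the 10 listed genes, 7 were found there, by 9 probes, among 15059 gene symbols in that table. The other 3, Pde3a, Pde4b and Pde8a, were on the array but not in the table, and their scanner values are given for completeness.

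The arrays profiled cumulus cells (somatic cells that enclose the oocyte) of B6CBAF1/J mice, with 5 pools of cells and 5 one-colour Agilent arrays for each of 3 stages. At NC1, unexpanded complexes were taken from juveniles of 3 weeks, and their prophase I oocytes were labelled as incompetent for development (in the study's text, incompetent or of poor competence). At C1, unexpanded complexes with competent prophase I oocytes were taken from adults of 8 weeks. The C2 cells were from expanded complexes of 8-week-old adults that had been superovulated with PMSG and hCG, were flushed from the oviduct and held metaphase II oocytes. No hormone is stated for the NC1 and C1 mice. Cumulus cells were freed by pipetting at NC1 and C1 and by hyaluronidase at C2, and each pool held cells of several mice. Stage therefore cannot be told apart from age between NC1 and C1, nor from hormone treatment, collection site and enzyme between C1 and C2. Pools were taken as separate samples as labelled, so p-values measure the spread between pools.

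Levels are log2 signals minus the median of the same array, so that 0 is the median valid probe, and a level is compared only within 1 probe. Valid probes are those well above background on 4 or more of the 5 arrays at every stage. The array-wide picture differed widely between the steps. At an adjusted p under 0.01 (limma, Benjamini-Hochberg over 17324 valid probes), 2.52% of probes were called between NC1 and C1 and 47.6% between C1 and C2. The number of gene probes above background ranged from 18368 to 24496 per array, and the lowest such signal was highest on C1 replicate 3, at -3.71. Of the 9 cumulus and granulosa markers 8 were valid, and their summed level was 172 to 232 at NC1, 185 to 222 at C1 and 44.7 to 54.8 at C2, where Kitl was not above background on any array. Sums are of unlogged levels and weigh the brightest genes most, here Inha (mean 6.87 at C1 and 4.08 at C2). Of the 8 valid markers 6 were called lower from C1 to C2, against 22.2% of all valid probes. Foxl2 differed by 0.03 and Nr5a1 by 0.64, neither of them called (adjusted p = 0.91 and 0.013, limma). Oocyte markers, with a summed level of 15.2 to 59.1 at NC1 and 15.2 to 47.5 at C1, were at 13.9 to 17.5 on C2 replicates 1 to 3 but at 0.789 and 0.854 on C2 replicates 4 and 5, which thus stood apart. The summed level of 6 theca and stroma markers was 7.28 to 13.8 at C1 and 0.421 to 0.593 at C2. From C1 to C2 the sums were 3.97 to 7.04 and 15.9 to 20.6 for oviduct epithelium, 0.775 to 1.03 and 0.966 to 1.72 for endothelium, and 3.73 to 5.03 and 3.87 to 5.80 for leukocytes, while red blood cell markers were at 70.4 to 412 at NC1, 10.2 to 42.3 at C1 and 9.63 to 24.5 at C2. Of the oviduct list, Ovgp1 differed most, by 2.28 (mean -0.76 at C1 and 1.52 at C2), without a call (adjusted p = 0.034, limma). Krt18 was called higher at C2 (mean 2.08 at C1 and 3.85 at C2), and Epcam and Tppp3 were called lower (log2 differences -1.05 and -1.01). Foxj1 was above background on 1 array at C1 and 3 at C2, and Pax8 on no array. Of the endothelial list, Cdh5 was called higher (mean -1.95 at C1 and -0.45 at C2), Kdr differed by 0.09 without a call, Emcn was above background on 4 arrays at C1 and 0 at C2, and Tek on none. The part of other cell types in the results on these genes was not tested.

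As background, phosphodiesterases end cyclic nucleotide signals and fall into families by substrate. PDE4, PDE7 and PDE8 enzymes hydrolyse cAMP, PDE5 hydrolyses cGMP, and PDE3 and PDE10 enzymes accept both. PDE6 is the cGMP enzyme of photoreceptors, and its delta subunit, encoded by Pde6d, has no catalytic site but carries prenylated proteins between membranes. In the follicle, cAMP mediates the action of gonadotropins on somatic cells, while cGMP made by cumulus and granulosa cells passes through gap junctions and holds the oocyte in prophase.

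Promoter sequences of the RefSeq annotation (GRCm38.p6) were found for 6 of the 7 genes, with 13 transcription starts, and 250 bases before each start were searched. They are shown for the listed cAMP-specific form with the largest rise and for the listed cGMP-specific form, which fell. In the first sequence, from the inner start of Pde4a that held a half-site of the cAMP response element, the half-site is in capitals. No capitals stand in the second sequence, since Pde5a held no such match.

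Pde4a, chr9:21183851-21184100, plus strand: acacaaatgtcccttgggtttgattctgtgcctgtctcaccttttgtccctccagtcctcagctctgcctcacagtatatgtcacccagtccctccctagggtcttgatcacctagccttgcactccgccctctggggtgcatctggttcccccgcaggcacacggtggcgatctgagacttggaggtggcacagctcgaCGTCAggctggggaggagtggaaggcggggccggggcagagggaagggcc
Pde5a, chr3:122728908-122729157, plus strand: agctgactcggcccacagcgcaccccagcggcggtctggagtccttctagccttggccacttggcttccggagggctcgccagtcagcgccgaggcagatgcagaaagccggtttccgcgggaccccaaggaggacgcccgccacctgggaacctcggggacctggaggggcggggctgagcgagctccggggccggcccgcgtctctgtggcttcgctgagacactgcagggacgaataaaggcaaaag

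The half-site TGACG, searched on both strands, began 50 bases before that Pde4a start as its reverse complement, and was in 1 of the 13 upstream sequences against 17.8% of all 32851 upstream sequences of the annotation. The full element TGACGTCA, which contains the half-site, was in none of the 13 and in 1.55% of all. Likewise none of the 13 held the AP-1 letters TGANTCA, found in 6.75% of all, or the SF-1 letters AAGGTCA, found in 4.08% of all. The RUNX letters TGTGGT were in 3 of the 13 and in 14.0% of all, and the GC box GGGCGG was in 6 of the 13 and in 32.7% of all. These are letter matches in a fixed window only. The 13 sequences are not independent, since Pde8b gave 5 of them, Pde4a 3 and Pde10a 2, and windows of neighbouring Pde8b starts share most of their bases.

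Of the 7 genes found, 5 had a valid probe and entered the fit. From C1 to C2 Pde4a rose 4.84-fold, Pde5a fell 2.94-fold, Pde6d rose 1.96-fold and Pde7a fell 1.86-fold, while Pde10a was not called. Of the 2 listed cAMP-specific forms with a valid probe, Pde4a was higher and Pde7a lower at C2. Pde4d and Pde8b were not valid in every stage. Of the 5, the fit called 4 from C1 to C2, against 47.6% of all valid probes. The list was chosen with earlier results of these data known. The study's text already reports a rise of Pde6d and a fall of Pde5a and Pde7a. It also reports a rise of a gene printed as Pdea4, read here as Pde4a. These counts are therefore a description and no result about the family. Pde4a and Pde6d (2 of 5) were higher, where 25.4% of all probes were, and Pde5a and Pde7a (2 of 5) were lower, where 22.2% of all probes were. The arrays of C1 and C2 did not overlap for 3 of 5, against 43.9% of all probes. Between NC1 and C1, 0 of 5 were called by limma against 2.52% of all, and 1, Pde4a, had an unadjusted p under 0.05. With unmoderated variances 0 were called. The arrays of NC1 and C1 overlapped for all 5, while 5.97% of all probes did not overlap. Between NC1 and C2, 5 of 5 were called against 51.5% of all, and the same number was called over the 3 stages by the moderated F-test, also against 51.5%. From NC1 to C2, 3 of 5 were higher and 2 of 5 lower, against 26.5% and 24.9% of all probes, and the arrays did not overlap for any of the 5, against 48.9% of all probes. The comparisons share the arrays of each stage and are not independent of one another. A lower level in these bulk pools may be fewer cells of a type or less RNA per cell, which cannot be told apart.

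**Figure D1:**
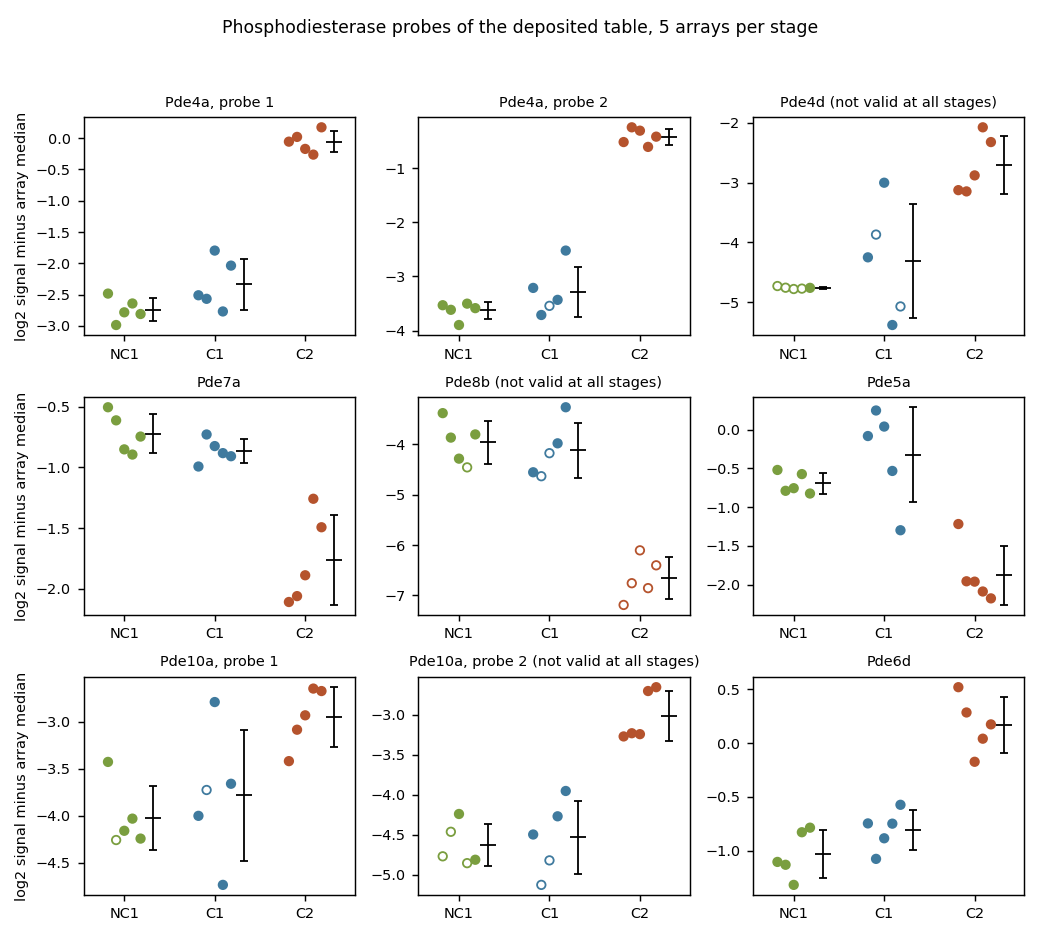
Log2 signal minus array median (vertical axis) of the 9 phosphodiesterase probes on the 5 arrays of each stage, with the mean and SD beside the points. Filled points were well above background and open points were not. Both Pde4a probes separate C2 from the other stages upwards, and Pde7a separates it downwards.

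Pde4a, a cAMP-specific enzyme of the PDE4 family, was measured by 2 valid probes of the same RefSeq transcript record. On the first probe (A_55_P2029187) the levels were -2.48, -2.99, -2.78, -2.64 and -2.81 at NC1. At C1 they were -2.51, -2.57, -1.80, -2.77 and -2.04. At C2 they were -0.06, 0.02, -0.17, -0.26 and 0.17. All C2 arrays lay above all other arrays, while NC1 and C1 overlapped. The level rose by 2.28 ± 0.17 (SE) from C1 to C2 (95% interval 1.92 to 2.63, adjusted p = 7.1e-09, limma), and was 1.74 to 2.71 higher within the 4 slides, each of which carried all 3 stages. From NC1 to C1 the difference was 0.40 ± 0.17, with an adjusted p of 0.21 (limma). The second probe (A_55_P2029191) averaged -3.63 ± 0.16 (SD, n = 5) at NC1. Its mean was -3.28 ± 0.46 at C1, and it reached -0.42 ± 0.15 at C2. Its rise from C1 to C2 was 2.86 ± 0.18 (adjusted p = 1.0e-09, limma), a 7.27-fold rise against 4.84-fold on the first probe, so that both probes rose but by unequal amounts. Both kept their direction under every scaling of the arrays.

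Pde7a, the other listed cAMP-specific enzyme with a valid probe (A_51_P293269), had levels of -0.50, -0.61, -0.85, -0.89 and -0.75 at NC1. At C1 they were -0.99, -0.73, -0.82, -0.88 and -0.91. At C2 they were -2.11, -2.06, -1.89, -1.26 and -1.49. Every C2 array was below every other array, and replicates 4 and 5 were the highest of C2. It fell by 0.90 ± 0.15 from C1 to C2 (95% interval -1.21 to -0.58, adjusted p = 7.2e-05, limma), with differences of -1.29 to -0.63 within slides. Without C2 replicates 4 and 5, the arrays with few oocyte transcripts, the difference was -1.15. The part of oocyte RNA in that value was not tested. When arrays were scaled by the median of all gene probes the fall was 0.59 in size (log2 difference -0.59, adjusted p = 0.017, limma), which did not reach the threshold. From NC1 to C1 the difference was -0.15 ± 0.15 (adjusted p = 0.70, limma). A further Pde7a probe, for another transcript record and outside the table, was above background on 1 of 15 arrays.

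Pde4d, another cAMP-specific gene (probe A_55_P2010396), was well above background on 1, 3 and 5 arrays of NC1, C1 and C2. Its NC1 levels lay between -4.78 and -4.73. Its C1 levels were -4.25, -3.87, -3.00, -5.38 and -5.07, and its C2 levels were -3.12, -3.15, -2.88, -2.07 and -2.32. The highest C1 value, on replicate 3, exceeded 2 of the C2 values, so that C1 and C2 overlapped, while all C2 arrays lay above NC1. In an alternative fit over the 20844 probes present in at least 1 stage, where 48.6% were called between C1 and C2, the difference was 1.61 ± 0.36. It was 1.93 without C1 replicate 3, and -0.12 to 2.77 within slides. Because Pde4d passed only through its highest stage, that fit had to find it higher there, and no test is given.

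Pde8b, a cAMP-specific enzyme of high affinity, behaved in the opposite way (probe A_55_P2017982). It was well above background on 4 arrays at NC1 and 3 at C1 but on 0 of 5 at C2. Its levels were -3.38, -3.87, -4.28, -4.46 and -3.80 at NC1 and -4.55, -4.63, -4.18, -3.98 and -3.26 at C1. At C2 the measured mean was -6.66, below the background limit of those arrays. With C2 set to the lowest detectable signal of each array, mean -4.79, Pde8b was at least 1.78-fold lower at C2 than at NC1. For C1 the same reckoning gave 1.59-fold, which is no lower limit, since C1 replicates 2 and 3 were not above background. In the alternative fit 52.4% of probes were called from NC1 to C2. Pde8b entered that fit only through NC1, where it was high, so that it had to be lower elsewhere. Its C2 signals were also below background, and no test is given. NC1 and C1 overlapped fully.

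Pde5a, the listed cGMP-specific enzyme (probe A_55_P2042778), was at -0.52, -0.79, -0.76, -0.57 and -0.82 at NC1. At C1 the levels were -0.08, 0.25, 0.04, -0.53 and -1.30. At C2 they were -1.22, -1.96, -1.96, -2.09 and -2.18. The C1 pools spread most, with an SD of 0.61, and C1 replicate 5 lay just below C2 replicate 1, the highest C2 array, so the 2 stages overlapped by that pair. Pde5a fell by 1.56 ± 0.24 from C1 to C2 (95% interval -2.07 to -1.04, adjusted p = 3.7e-05, limma), was lower at C2 in each of the 4 slides, with differences of -2.26 to -0.66, and stayed called under every alternative tried. From NC1 to C1 it differed by 0.37 ± 0.24 (adjusted p = 0.50, limma), with a 95% interval from -0.15 to 0.88. Against NC1, all C2 arrays were lower and the difference was -1.19 ± 0.24 (adjusted p = 4.3e-04, limma). Smooth muscle also carries PDE5, as background. The summed level of 5 smooth muscle markers was 3.95 to 6.72 at C1 and 0.498 to 0.803 at C2, where Myh11 and Des were above background on no array. On C1 replicate 5, the lowest C1 array for Pde5a, that sum was 6.72, the highest of C1. The part of such cells in the fall of Pde5a was not tested.

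Pde6d, the non-catalytic delta subunit (probe A_51_P488092), had levels of -1.10, -1.13, -1.32, -0.83 and -0.79 at NC1. At C1 they were -0.75, -1.08, -0.88, -0.75 and -0.57, overlapping NC1. At C2 they were 0.52, 0.28, -0.17, 0.04 and 0.17, above all other arrays. The rise from C1 to C2 was 0.97 ± 0.14 (95% interval 0.67 to 1.27, adjusted p = 1.8e-05, limma), and 0.40 to 1.40 within slides. Scaled to the spike-in probes it was 0.85 with an adjusted p of 0.036 (limma). The difference from NC1 to C1 was 0.23 ± 0.14 (adjusted p = 0.47, limma).

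Pde10a, which hydrolyses both nucleotides, was measured by 2 probes of the table. The valid one (A_55_P2090484) had levels of -3.43, -4.26, -4.16, -4.03 and -4.24 at NC1. At C1 they were -4.00, -3.73, -2.79, -4.73 and -3.66, and at C2 -3.42, -3.08, -2.93, -2.65 and -2.67. C2 exceeded all NC1 arrays but overlapped C1, where replicate 3 was the highest. The difference from C1 to C2 was 0.83 ± 0.27 (95% interval 0.25 to 1.41, adjusted p = 0.016, limma), which did not pass the threshold, and -0.63 to 1.87 within slides. Without C1 replicate 3 it was 1.08 and was called (adjusted p = 9.4e-04, limma). From NC1 to C2 Pde10a rose by 1.07 ± 0.27 (adjusted p = 0.0028, limma), and this call was lost without C2 replicates 4 and 5, where the value was 0.88 (adjusted p = 0.031, limma). The second probe (A_51_P419017), above background on 2, 3 and 5 arrays of NC1, C1 and C2, averaged -4.63 ± 0.27 (SD, n = 5), -4.53 ± 0.46 and -3.02 ± 0.31, with all C2 arrays above all C1 arrays. Because it passed only through C2, its highest stage, no test is given. A further probe outside the table was above background on 0 of 15 arrays.

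**Figure D2:**
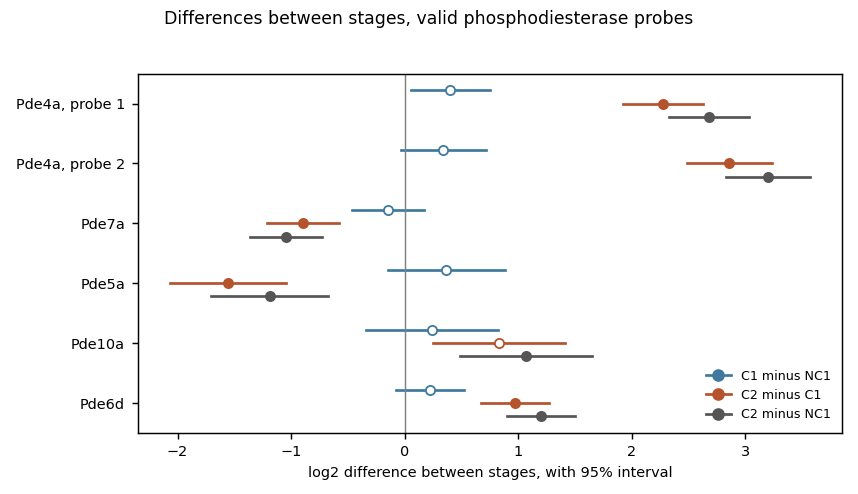
Log2 differences between stages with 95% intervals from limma for the 6 valid probes of 5 genes (filled points, adjusted p under 0.01). The C1 minus NC1 differences are all open, whereas Pde4a and Pde6d lie to the right, and Pde5a and Pde7a to the left, for C2 minus C1.

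The 3 listed genes outside the table stayed near background. Pde3a, which encodes the main phosphodiesterase of the oocyte, had 2 probes, of which 1 was above background on a single C2 array and the other on none. Of 13 oocyte markers with a probe, 4 were valid at all 3 stages, namely Gdf9, H1f8, Npm2 and Mos. Npm2 was called lower from C1 to C2 (log2 difference -2.89), and the others were not called. On C2 replicates 4 and 5, Gdf9 was at -1.69 and -1.42 and H1f8 at -3.60 and -3.57. Zp2 and Figla were above background on no C2 array. Pde4b, a cAMP-specific gene, had 3 probes, each above background on at most 1 array of any stage. Pde8a, a close relative of Pde8b, was above background on 2, 3 and 3 arrays of NC1, C1 and C2, with means of -4.75, -4.79 and -4.33. None of these probes was valid, and their differences were not tested.

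The cAMP-specific and cGMP-specific forms were then set against each other within each array. This takes out a constant shift of all log2 signals of the array, but not other kinds of scaling. These pairs were chosen after their values were seen. Because probes differ in affinity, the change of such a difference can be read but its 0 cannot. Pde4a minus Pde5a was -2.05 ± 0.09 (SD, n = 5) among NC1 arrays. It was -2.01 ± 0.79 at C1, and 1.82 ± 0.43 at C2. The difference between C1 and C2 was 3.83, with no overlap (-2.81 to -0.74 at C1, 1.16 to 2.35 at C2; exact two-sided permutation p = 0.0079, the smallest that 5 against 5 can give, adjusted p = 0.032 over 4 tests, which is not under 0.01). It changed by 0.04 from NC1 to C1 (exact permutation p = 0.95, adjusted p = 0.95). Pde7a minus Pde5a was -0.54 ± 0.58 at C1 and 0.12 ± 0.69 at C2, with overlapping arrays (exact permutation p = 0.15, adjusted p = 0.20), and changed by -0.51 from NC1 to C1 (exact permutation p = 0.095, adjusted p = 0.19).

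**Figure D3:**
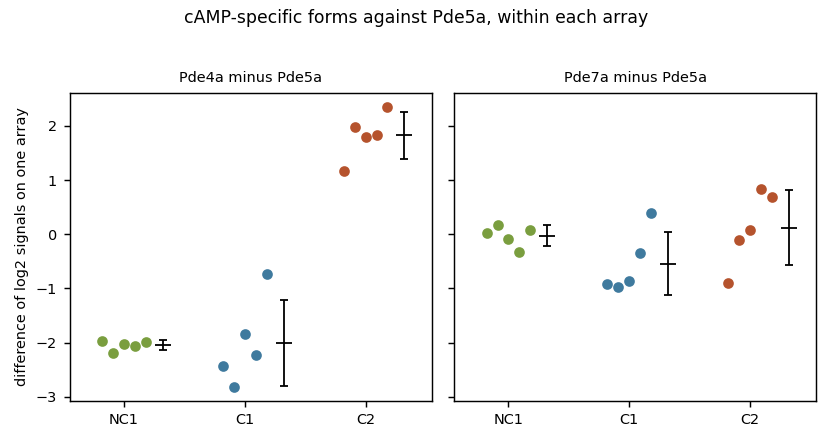
Difference of log2 signals on the same array, Pde4a minus Pde5a on the left and Pde7a minus Pde5a on the right, for 5 arrays per stage with mean and SD. On the left the C2 arrays lie at 1.16 to 2.35, above all others, and on the right the stages overlap.

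The genes whose levels followed each member most closely over the 15 arrays were found among 15824 named valid probes. These correlations rest largely on the differences between stages and are a description. Strbp and Tec were among the nearest to the first Pde4a probe (Pearson r = 0.987 for each), and the second was nearest to Necap2, Gm6981 and Oasl2 (r = 0.991, 0.990 and 0.990). Pde7a was nearest to Topbp1, Stt3b and Nup210 (r = 0.967, 0.967 and 0.965), and Pde6d to Becn1, Gm5278 and Krt85 (r = 0.981, 0.980 and 0.980). Pde5a was nearest to Slc49a4, with r = 0.977, then Gm7877 and Senp8 at 0.947 and 0.940. Pde10a had the lowest values, 0.951 with Sirt6, 0.939 with Tfr2 and 0.931 with Serinc2.

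Among the 14 other phosphodiesterase genes, 4 were valid. From C1 to C2, Pde1b, a calmodulin-dependent enzyme, rose by 0.70 ± 0.19 (adjusted p = 0.0038, limma), and Pde2a, which is stimulated by cGMP, fell by 1.97 ± 0.33 (adjusted p = 7.5e-05, limma). These 2 of 4 stand against 47.6% of all valid probes called. Pde1a and Pde4c had differences of 0.21 and -0.12 that were not called, and Pde4c, the remaining PDE4 gene, changed sign with the scaling. The median of the 4 was 0.04 against 0.02 over all valid probes. None of the 4 (0 of 4) was called from NC1 to C1 (limma), 1 having an unadjusted p under 0.05. Further genes were well above background at some stage only. Pde3b, which cGMP inhibits, averaged -2.86 ± 0.54 (SD, n = 5) at C1 and -4.41 ± 0.65 at C2. Pde9a, a cGMP-specific enzyme, was above background on 5, 5 and 1 arrays of NC1, C1 and C2, with means of -2.25, -2.83 and -5.17. Pde7b, the paralog of Pde7a, was above background on 5, 3 and 0 arrays of NC1, C1 and C2. It was at least 2.35-fold higher at NC1 than at C2. For C1 the same reckoning gave 1.08-fold, which is no lower limit, since C1 replicates 3 and 5 were not above background. Since this probe passed only through NC1, its highest stage, no test is given. Its other probe was above background on 1, 0 and 0 arrays, with means of -5.15, -5.91 and -6.16. Pde6h, which encodes the inhibitory subunit of cone PDE6, rose on both its probes. On the brighter probe it was -4.52, -5.40, -4.57, -5.46 and -5.21 at NC1, -3.83, -3.24, -2.14, -4.84 and -4.90 at C1, and 0.71, 0.18, 0.50, 0.03 and -0.50 at C2, so that every C2 array exceeded every other array. The difference from C1 to C2 was 3.97 ± 0.44 (adjusted p = 1.4e-06 in the alternative fit, limma) and 4.38 without C1 replicate 3. Pde6a was above background on 3, 3 and 0 arrays and Pde6g on 1 array in all, and Pde6b, Pde6c, Pde1c and Pde11a were above background on none.

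**Figure D4:**
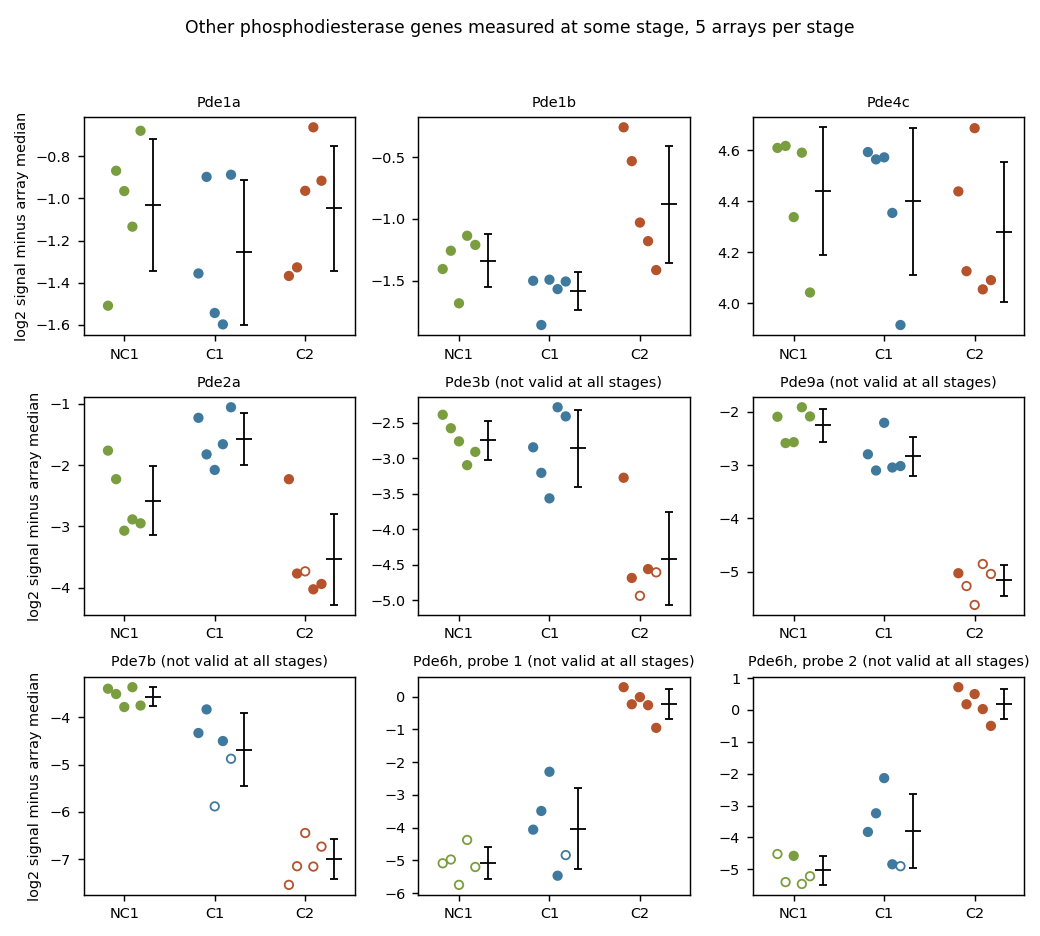
Log2 signal minus array median of 9 probes of other phosphodiesterase genes on 5 arrays per stage, with mean and SD. Filled points were well above background. Pde6h is highest at C2, whereas Pde3b, Pde7b and Pde9a are lowest there.

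Cyclases make the substrates, and natriuretic peptides act through some of them. Of 23 such genes 7 were valid, and from C1 to C2 5 fell, 1 rose and 1 was not called, where 22.2% of all valid probes fell and 25.4% rose. The median difference was -1.30 against 0.02 over all valid probes. Gucy1a1, a subunit of soluble guanylyl cyclase, fell by 2.15 ± 0.25 (adjusted p = 1.7e-06, limma), and Npr2, the guanylyl cyclase receptor of C-type natriuretic peptide, by 1.54 ± 0.12 (adjusted p = 2.4e-08, limma). The adenylyl cyclase genes Adcy9 and Adcy5 fell by 1.90 and 1.30, and Adcy3 rose by 0.95. Nppc, which encodes C-type natriuretic peptide and is made chiefly by mural granulosa cells, averaged 1.68 at NC1 and 1.20 at C1 and was above background on 2 of 5 arrays at C2, with a mean of -4.79. Npr1, the receptor of atrial natriuretic peptide, was above background on 0, 1 and 5 arrays of NC1, C1 and C2. Among the 7, 0 were called from NC1 to C1 (limma), and 1 had an unadjusted p under 0.05.

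Effectors carry the signals of the cyclic nucleotides onward. Of 19 effector genes 14 were valid, and from C1 to C2 5 rose, 4 fell and 5 were not called, against 25.4% of all valid probes that rose and 22.2% that fell. The median was 0.06, and 0.02 over all valid probes. The regulatory subunits of protein kinase A were split: Prkar2b fell by 2.53 ± 0.20 (adjusted p = 1.9e-08, limma) while Prkar1b rose by 1.83 ± 0.23 (adjusted p = 3.4e-06, limma). Crem, a transcription factor that answers to cAMP, rose by 1.58 ± 0.17, and Rapgef3, an exchange factor opened by cAMP, fell by 1.38 ± 0.29. Prkg2, a protein kinase driven by cGMP, was above background on 0, 3 and 5 arrays of NC1, C1 and C2, with means of -5.18, -3.17 and -0.08. For the step from NC1 to C1, 0 of 14 were called (limma), and 6 had an unadjusted p under 0.05.

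Anchors that hold phosphodiesterases and protein kinase A in place, and exporters of cyclic nucleotides, were measured for 18 genes, 13 of them valid. From C1 to C2 2 rose, 3 fell and 8 were not called, so that 5 of 13 were called against 47.6% of all valid probes. The median was 0.09, and 0.02 over all valid probes. Pde4dip, which encodes myomegalin, an anchor of PDE4D, rose by 1.03 ± 0.12 (adjusted p = 1.7e-06, limma) on its brightest probe and by 2.18 and 2.21 on the other two. Akap10 rose by 0.93, Abcc5, an exporter of cyclic nucleotides, fell by 0.91 on its brightest probe, and Akap12 fell by 0.84. The further Abcc5 probes differed by -0.15, -0.50 and 0.05. The step from NC1 to C1 gave 0 called of 13 (limma), and 1 had an unadjusted p under 0.05.

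The 8 partner genes of PDE6D, which release or compete for its prenylated cargo or receive it in the cilium, were all valid. From C1 to C2, 4 rose, 1 fell and 3 were not called, against 25.4% of all valid probes that rose and 22.2% that fell. Their median difference was 0.43, and 0.02 over all valid probes. Unc119b, a lipid-binding relative, rose by 0.96 ± 0.12 (adjusted p = 3.6e-06, limma), Arl13b by 0.88 and Rp2 by 0.66, while Rpgr, a ciliary cargo adaptor, fell by 0.58. Arl2, a small GTPase that releases cargo from PDE6D, rose by 0.39, and Arl3, its relative with the same role, differed by 0.29 without passing the threshold. With the arrays scaled to the spike-in probes 0 of the 8 were called. Of the 8, 0 were called from NC1 to C1 (limma), and 2 had an unadjusted p under 0.05. All 27 genes of these 5 lists called between C1 and C2 kept their direction under each scaling.

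**Figure D5:**
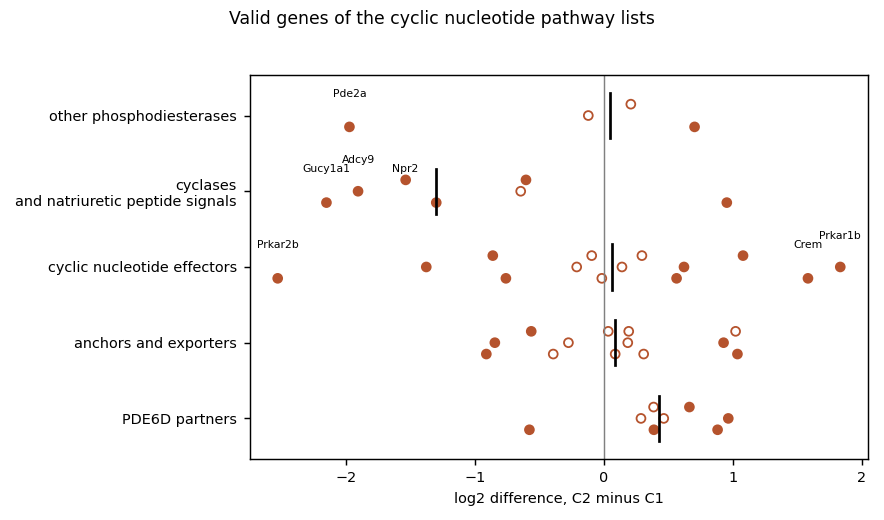
Log2 difference C2 minus C1 of each valid gene in 5 lists of the cyclic nucleotide pathway (filled points, adjusted p under 0.01 by limma; black bars, list medians). The cyclase list has its median at -1.30, and the other medians lie between 0.04 and 0.43.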

How the data were processed

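Total RNA of 15 pools of cumulus cells was labelled with Cy3 and hybridized to Agilent arrays. The authors deposited the scanner output, in which Feature Extraction (10.7.1.1 in the file headers, 10.5.1.1 in the submitters' processing notes) gives background-subtracted spot intensity, and a table of log2 values equal to the log2 intensity plus 1 constant per array (SD of the difference at most 0.00742). Here spots of a probe were averaged after spots with outlier flags were left out, log2 was taken, and each array's median over valid probes was subtracted. Probes above background by the scanner's flag on 80% or more of every stage's arrays were valid (17324 of 39429 gene probes, with 20 missing values). No spot was saturated. Depth has no counterpart on arrays, and their number limits the precision.

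Probes were named by accession through RefSeq genes (GRCm38.p6; 26049 probes) or the deposited table (2776), and 10604 stayed unnamed. The deposited table held 20880 rows, of which 20855 matched a scanner probe. A gene with several probes was represented by the brightest on average, and Akap2 was measured under its symbol Pakap. Stages were compared with limma 3.58.1 in R 4.3.3, with 1 model over 15 arrays, two-sided moderated tests and Benjamini-Hochberg adjustment over all valid probes at 0.01. The adjustment and its threshold follow the study's methods, and the moderated test does not. Fit and calls were tested on simulated data. Lower bounds took, per array of the dim stage, the larger of 2 signals, the probe's own and the lowest detected on that array. The bright stage entered as the mean of all its arrays, above background or not. Permutation tests used Python 3.11.15. The members, the pathway and marker lists and the tests were chosen with earlier results of these data known. Named genes were all members, up to 4 called genes of the largest change per list and step with list genes that bear directly on a member, the 3 nearest genes of each valid member (1 of them is not reported here), and the markers.

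Alternatives were other scalings (median of all gene probes, 75th percentile, quantile, spike-in probes, the deposited table), normexp background correction with an offset of 50 on median signals, other filters, outlier spots kept, slide or replicate number as a block, unmoderated variances, a 2-fold minimum, an adjusted p under 0.05 and each array left out. After the data were seen, slide as a fixed term, leaving out C2 replicates 4 and 5, and differences without C1 replicate 3 were added.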

Additional observations from a re-analysis of the deposited data

Results flagged for a closer look

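Within the groups of 5 arrays, an end array whose gap to the nearest other array made up most of the group's range was looked for in 27 groups (9 probes at 3 stages), and 3 were found. Chance flags about 1 in 20 groups. Pde5a at C2 was -1.22 on replicate 1, against -2.18 to -1.96 on the other 4 arrays. Pde4a on its second probe was -3.90 at NC1 on replicate 3, against -3.62 to -3.50. Pde10a on its valid probe was -3.43 at NC1 on replicate 1, against -4.26 to -4.03. Without C2 replicate 1 the difference of Pde5a from C1 to C2 was -1.72.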

How the results depend on the processing

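Pde4a and Pde5a kept their direction and their call from C1 to C2 and from NC1 to C2 under every alternative, including slide as a block and the deposited table. Against 4 phosphodiesterases called from C1 to C2, a 2-fold minimum left 2, Pde4a and Pde5a. Pde7a lost its call from C1 to C2 with the median over all probes (-0.59) and in the deposited table (-0.59), both of which put the median of all valid probes at 0.33 against 0.02, and Pde6d with the spike-in probes (0.85). Pde10a was called from C1 to C2 with the median over all probes (1.14), quantile scaling (1.01), the deposited table (1.14), an adjusted p under 0.05 (0.83) and without C1 replicate 3 (1.08), and lost its call from NC1 to C2 with normexp (0.49), no filter (1.07) and without C2 replicates 4 and 5 (0.88). From NC1 to C1, signs turned for 2 uncalled values, Pde7a with the spike-in probes (0.013) and Pde10a without C1 replicate 3 (-0.0067, against 0.48 at most when another array was left out). From C1 to C2 the spike-in probes gave 1 other phosphodiesterase, 5 effectors, 2 anchors and exporters and 0 PDE6D partners, against 2, 9, 5 and 5 called. A 2-fold minimum gave 1, 5, 1 and 0 of these. Probes present in 1 stage gave 6 other phosphodiesterases and 10 cyclases and natriuretic peptide genes against 6, and no filter gave 6 and 11, since more genes were tested. Probes present on all arrays gave 1 other phosphodiesterase, normexp 3 PDE6D partners and an adjusted p under 0.05 8 PDE6D partners, and for NC1 to C1 the last gave 1 effector against 0. The cause of the other shifts was not tested. With 1 array left out, 4 to 5 phosphodiesterases were called from C1 to C2, 5 from NC1 to C2 and 4 to 5 over 3 stages, and from C1 to C2 1 to 2 other phosphodiesterases (1 without C1 replicate 2 or C2 replicate 2), 6 cyclase genes, 7 to 9 effectors, 5 to 6 anchors and exporters and 4 to 6 PDE6D partners, while 0 were called from NC1 to C1 in each.

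Replicate numbers were shared between stages but did not pair the arrays: same-numbered arrays correlated over 0.1 in 4 of 15 pairs (r from -0.24 to 0.35), and 5 of 15 arrays correlated best with their own number. With the replicate number as a block, 4 phosphodiesterases were called from C1 to C2, 5 from NC1 to C2, 0 from NC1 to C1 and 4 over 3 stages (against 5), and from C1 to C2 8 effectors (against 9) and 4 PDE6D partners (against 5). Dim signals limit what the arrays show of Pde3a, Pde4b, Pde4d, Pde8a and Pde8b.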
